A study of Mus musculus with 6 samples.

Results

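Peptide hormones are made as larger precursors and released by enzymes that work in sequence along the secretory pathway. Subtilisin-like proprotein convertases cut the precursor after pairs of basic residues, carboxypeptidases trim the exposed lysines and arginines, and some products are then amidated at the C terminus or cyclised at the N terminus. In beta cells, proinsulin is cut by the granule convertases PC1/3 and PC2, encoded by Pcsk1 and Pcsk2, and trimmed by carboxypeptidase E, while furin and its relatives serve the constitutive route through the trans-Golgi network. Ribosome footprints on 8 genes of this chain, selected by name, are described here: Pcsk1, Pcsk2, Furin and Pcsk7 for the convertases, Cpe and Cpd for the carboxypeptidases, Pam for amidation and Qpct for N-terminal cyclisation. All 8 were found once each among the 21652 genes of the deposited count table, and all 8 were among the 12782 genes with enough counts to be tested.

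The cells were MIN6, an established mouse line that came from a beta-cell tumour and secretes insulin. They expressed either sgLTN1, a CRISPR guide against Ltn1, or sgNT, which is read here as a non-targeting control guide. Each group had 3 libraries, all with a single batch label, and the labels do not say whether the cells were a clone or a pool or whether the libraries are separate cultures. The p-values therefore cover only variation among these libraries, which may be technical. A footprint is an mRNA stretch shielded by a ribosome from nuclease, so its count reflects both mRNA amount and ribosome occupancy. RNA-seq was not used here to divide mRNA from occupancy.

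Library totals ranged from 4993245 to 11198735 counts in sgLTN1 and from 4373467 to 7802364 counts in sgNT. Ltn1, which encodes the ribosome-associated ubiquitin ligase Listerin, had 67.2 ± 3.67 CPM in sgLTN1 and 143 ± 1.84 CPM in sgNT (CPM, library-scaled counts; mean ± SD, n = 3 each). Of 10 beta-cell marker genes, 9 were tested, and the exception was the glucose transporter gene Slc2a2 with 0 to 14 counts in sgLTN1 libraries and 2 to 7 in sgNT libraries. The summed level of 7 exocrine markers was 1.17 to 4.45 CPM in sgLTN1 and 2.23 to 3.45 CPM in sgNT, and none of the 7 was at 0 in every library.

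All 8 enzyme genes had a log2 fold change above 0 in sgLTN1 over sgNT (7 of 8, without Pcsk2, when libraries were scaled by total counts, with or without the genes above 1% of a library), with a median of 0.13 against -0.016 over all tested genes, of which 47.3% were above 0. None passed an adjusted p of 0.05 (edgeR's quasi-likelihood test, Benjamini-Hochberg adjusted over all tested genes), a threshold that 0.180% of tested genes passed. At an unadjusted p under 0.05 there were 3 of the 8, Furin, Cpd and Pam, all higher in sgLTN1, against 15.6% of all tested genes in either direction (1023 of the 12782 higher). The sgLTN1 values lay wholly above the sgNT values for 4 of the 8, these 3 and Pcsk1, against 10.1% of all tested genes. In the authors' deposited table, made with DESeq2, Furin and Cpd were called higher (adjusted p = 0.0225 and 0.0480), Pam was just outside (adjusted p = 0.0551), and 6.79% of the genes with an adjusted p were called higher.

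**Figure D1:**
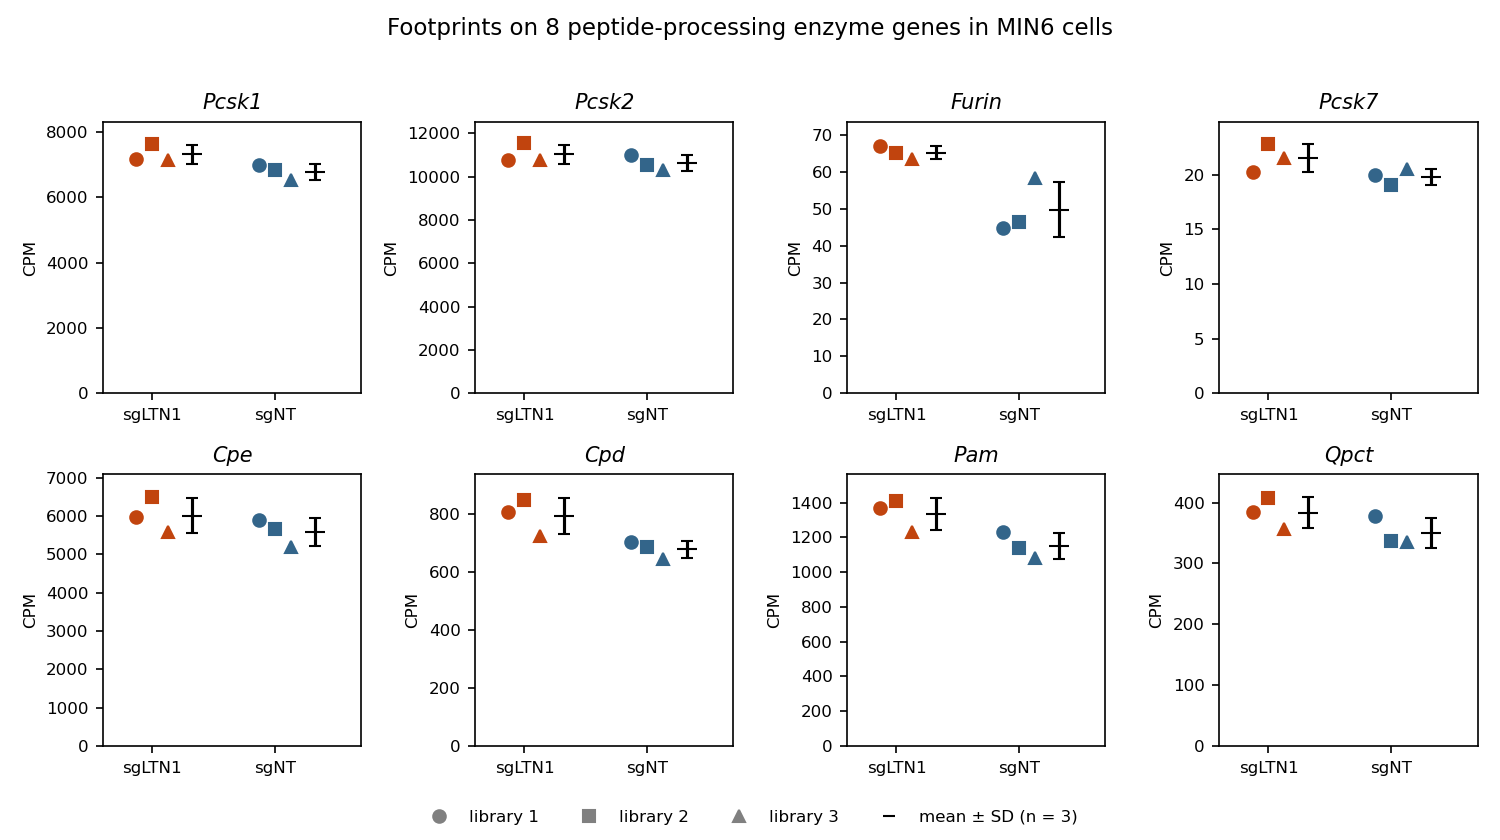
Footprint level (CPM, linear axis from 0) of each enzyme gene in each library, sgLTN1 in orange and sgNT in blue, with the mean and SD of 3 libraries in black. The sgLTN1 values of Furin, Cpd, Pam and Pcsk1 lie above all their sgNT values, and those of Pcsk2, Pcsk7, Cpe and Qpct overlap them.

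Fold changes in these libraries moved with abundance, so the 8 genes are set beside genes of like abundance. CPM values are not per length, so abundance here means counts and ranks no gene against another. Among the 101 genes at or above 10 on the log2 CPM scale, the median log2 fold change was 0.15, and 47.5% had sgLTN1 values wholly above the sgNT values. Pcsk1, Pcsk2, Cpe and Pam belong to these 101 genes. Among the 404 genes between 8 and 10, which include Cpd and Qpct, the median was 0.13 and 41.3% were separated upward. Among the 3825 genes between 4 and 6, which include Furin and Pcsk7, the median was -0.0048 and 10.5% were separated upward. The share higher in sgLTN1 at an unadjusted p under 0.05 also rose with abundance. It was 8.55% between 4 and 6, 45.0% between 8 and 10, and 52.5% at or above 10. With this trend removed from each library, log2 fold changes stayed above 0 for 5 of the 8 genes (Furin, Pcsk7, Cpd, Pam and Qpct), and the median of the 8 was 0.061. The removal uses a smooth curve with a span of 0.4 of the genes. At or above 10, where only 101 genes lie, that curve draws mostly on genes of lower abundance. The values below 0 for Pcsk1, Pcsk2 and Cpe depend on it. Library by library, the median deviation of genes at or above 8 from their own mean log2 CPM was 0.068, 0.12 and 0.0030 in sgLTN1 libraries 1 to 3, against -0.020, -0.058 and -0.11 in sgNT libraries 1 to 3. That of the 8 enzyme genes was 0.061, 0.16 and -0.0086 in sgLTN1, against -0.012, -0.10 and -0.12 in sgNT, so sgLTN1 library 3 and sgNT library 1 lay closest in both. The part of the trend in each gene's difference was not tested beyond its removal.

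**Figure D2:**
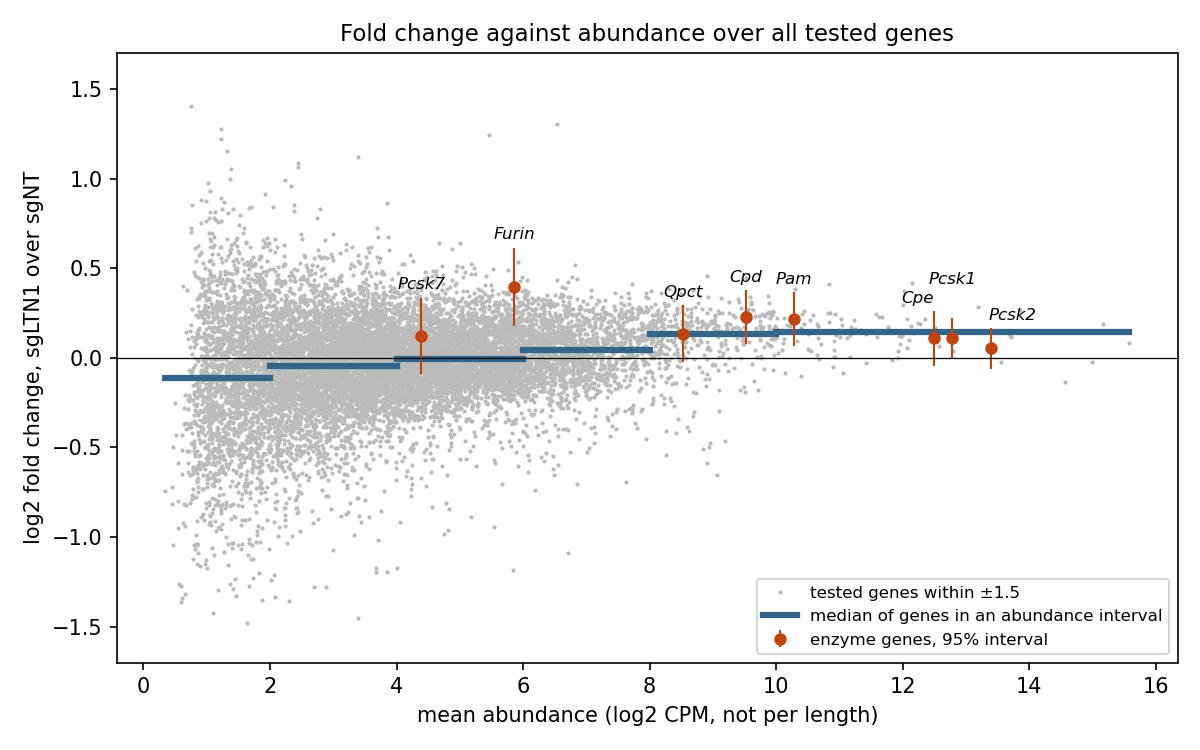
Log2 fold change (sgLTN1 over sgNT) against mean abundance (log2 CPM) for tested genes within ±1.5, in grey, with blue bars for the median in each abundance interval and orange points for the 8 enzyme genes with 95% intervals. Pcsk1, Pcsk2 and Cpe lie below the median of 0.15 of the genes at or above 10, while Furin lies far above that of its interval.

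Pcsk1 (ENSMUSG00000021587.6) encodes PC1/3, which opens the B-chain side of proinsulin. Its footprints read 7162, 7646 and 7139 CPM in sgLTN1 libraries 1 to 3, against 6981, 6843 and 6523 CPM in sgNT libraries 1 to 3. Every sgLTN1 library was above every sgNT library, but the gap between the closest pair was small beside the spread within sgLTN1. Its log2 fold change was 0.11 (SE 0.05, 95% interval -0.0061 to 0.22, adjusted p = 0.345 in edgeR's test), and it turned to -0.079 once the abundance trend was removed.

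Pcsk2 (ENSMUSG00000027419.10) encodes PC2, which cuts the A-chain side of proinsulin and also processes proglucagon in alpha cells. It read 10774, 11542 and 10749 CPM in the 3 sgLTN1 libraries, against 11004, 10557 and 10317 CPM in the 3 sgNT libraries. The groups overlapped, since sgNT library 1 exceeded 2 of the sgLTN1 libraries. Its log2 fold change of 0.05 (SE 0.05, 95% interval -0.061 to 0.17, adjusted p = 0.684 in edgeR's test) was the smallest of the 8. Removing the abundance trend gave -0.15 (adjusted p = 0.0935), and scaling by total counts -0.022. Leaving out 1 library gave 0.030 (without sgLTN1 library 2) to 0.099 (without sgNT library 1).

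The count of Pcsk1 per count of Pcsk2 within a library depends on no scaling factor. It was 0.665, 0.663 and 0.664 in the 3 sgLTN1 libraries, against 0.634, 0.648 and 0.632 in the 3 sgNT libraries. The sgLTN1 libraries sat close together, above all sgNT libraries, with a mean log2 difference of 0.057 (sgLTN1 minus sgNT). A two-sided exact permutation test (20 labellings) gave p = 0.1, the smallest it can give with 3 libraries a group, and p = 0.4 after Benjamini-Hochberg adjustment over the 4 ratios computed. Counting alone gives these counts a coefficient of variation of 0.403% in sgLTN1 and 0.509% in sgNT for Pcsk1, and 0.329% in sgLTN1 and 0.407% in sgNT for Pcsk2. The SD of the sgLTN1 ratios, 0.00115 on a mean of 0.664, was smaller than such counting error, so their closeness to each other is not read as a result, and the sgNT ratios had an SD of 0.00865.

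Each granule convertase has a dedicated partner. Pcsk1n encodes proSAAS, an inhibitor of PC1/3, and read 921 ± 41.1 CPM in sgLTN1 and 825 ± 57.2 CPM in sgNT (n = 3 each; log2 fold change 0.16, SE 0.07, adjusted p = 0.273 in edgeR's test). Its count per count of Pcsk1 was 0.126 ± 0.00418 in sgLTN1 and 0.122 ± 0.00454 in sgNT, and the libraries overlapped (two-sided exact permutation p = 0.5, n = 3 each). Scg5 encodes 7B2, the chaperone that PC2 needs to become active, and read 995 ± 35.1 CPM in sgLTN1 and 949 ± 51.7 CPM in sgNT (0.07, SE 0.06, adjusted p = 0.636 in edgeR's test). Its count per count of Pcsk2 was 0.0903 ± 0.00108 in sgLTN1 and 0.0893 ± 0.00206 in sgNT (two-sided exact permutation p = 0.6, n = 3 each). With the abundance trend removed, the log2 fold changes of these partners were 0.036 for Pcsk1n and -0.059 for Scg5.

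**Figure D3:**
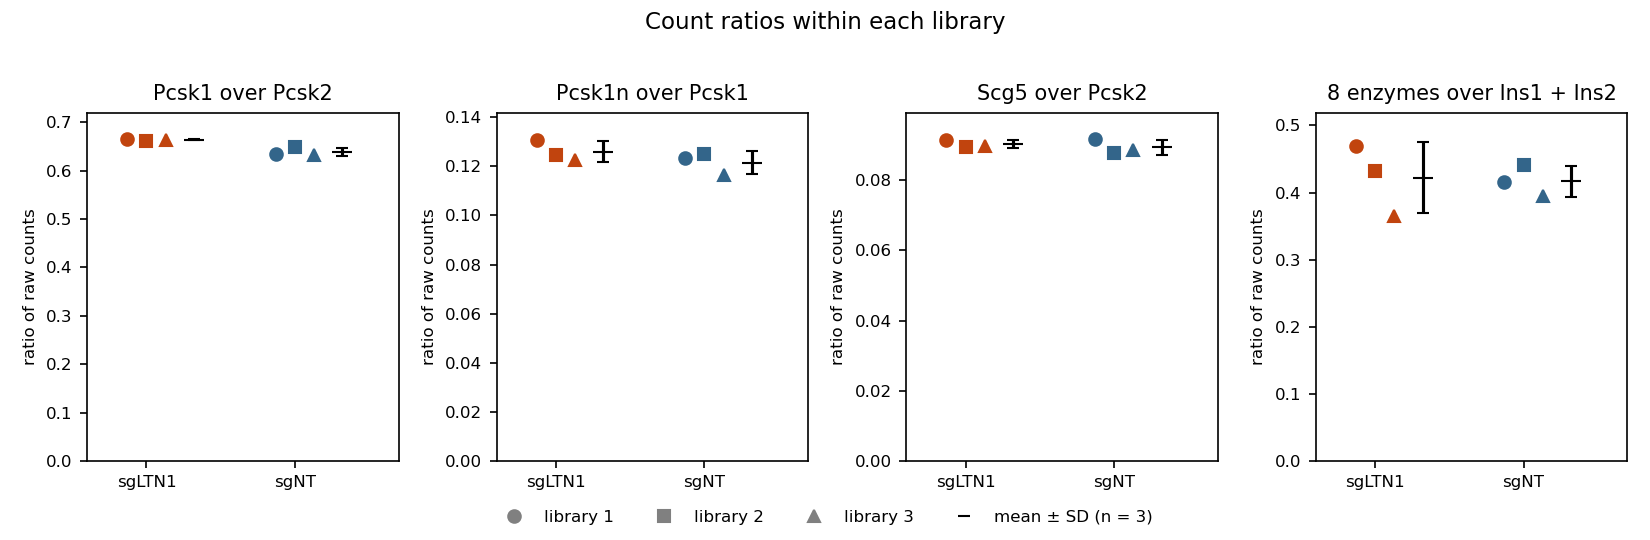
Ratios of raw counts within each library (linear axes from 0), sgLTN1 in orange and sgNT in blue, with the mean and SD of 3 libraries in black. Pcsk1 over Pcsk2 is 0.663 to 0.665 in sgLTN1 and 0.632 to 0.648 in sgNT without overlap, and the other 3 ratios overlap.

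The pair of granule convertase genes start from unlike promoters, shown here because theirs is the one ratio whose groups did not overlap. The 250 bases before each start site are given 5′ to 3′ from RefSeq (GRCm38.p6). Capitals mark the cAMP response element palindrome TGACGTCA, its core TGACG, the GC box GGGCGG and the TATA box TATAAA on either strand, and each palindrome holds the core on both strands. Pcsk1 is at chr13:75089607-75089856 and Pcsk2 at chr2:143545883-143546132, both on the plus strand.
Pcsk1: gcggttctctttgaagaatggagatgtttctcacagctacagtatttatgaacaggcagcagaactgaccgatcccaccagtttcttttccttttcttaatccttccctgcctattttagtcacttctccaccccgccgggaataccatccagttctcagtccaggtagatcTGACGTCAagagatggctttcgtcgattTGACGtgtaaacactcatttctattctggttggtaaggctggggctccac
Pcsk2: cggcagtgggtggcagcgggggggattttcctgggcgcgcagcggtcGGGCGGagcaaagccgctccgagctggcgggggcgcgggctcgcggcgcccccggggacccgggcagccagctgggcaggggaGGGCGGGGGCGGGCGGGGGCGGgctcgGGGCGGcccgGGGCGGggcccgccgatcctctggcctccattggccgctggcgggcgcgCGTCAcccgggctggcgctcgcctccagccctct
The Pcsk1 window was 46.8% G and C and held 1 palindrome, starting 78 bases before the start site, and a further core 50 bases before it, with no GC box. The Pcsk2 window was 82.4% G and C and held 7 GC boxes, some overlapping, and 1 core. Over the 27025 genes of the promoter table, taking 1 window a gene, 1.62% of windows held the palindrome, 17.9% the core, 32.9% the GC box and 13.0% the TATA box. Letters in a window are no evidence of factor binding, and footprints do not read promoter activity.

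Cpe (ENSMUSG00000037852.9) encodes carboxypeptidase E, which removes the basic residues that the convertases leave on insulin and other granule peptides. It read 5964, 6492 and 5568 CPM in sgLTN1, against 5902, 5646 and 5175 CPM in sgNT. The groups overlapped, with sgLTN1 library 3 below sgNT libraries 1 and 2. The log2 fold change was 0.11 (SE 0.07, 95% interval -0.043 to 0.26, adjusted p = 0.489 in edgeR's test), and -0.075 with the abundance trend removed. Leaving out 1 library moved it between 0.060 (without sgLTN1 library 2) and 0.17 (without sgNT library 1).

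Pam (ENSMUSG00000026335.17) encodes peptidylglycine alpha-amidating monooxygenase, the copper- and ascorbate-dependent enzyme that amidates peptides such as amylin. It read 1370, 1408 and 1231 CPM in sgLTN1, against 1229, 1137 and 1084 CPM in sgNT. The groups did not overlap, though sgLTN1 library 3 and sgNT library 1 nearly met. For Pam the log2 fold change was 0.22 (SE 0.07, 95% interval 0.067 to 0.37), with an unadjusted p of 0.00890 and an adjusted p of 0.178 in edgeR's test. With the trend removed it was 0.081.

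Qpct (ENSMUSG00000024084.9) encodes glutaminyl cyclase, which turns an N-terminal glutamine into pyroglutamate. Its 385, 408 and 357 CPM in sgLTN1 overlapped the 379, 336 and 335 CPM in sgNT, where library 1 stood above the other 2. Its log2 fold change was 0.13 (SE 0.07, adjusted p = 0.409 in edgeR's test), against a median of 0.13 for genes of its abundance. It ranged from 0.098 without sgLTN1 library 2 to 0.21 without sgNT library 1.

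Furin (ENSMUSG00000030530.16) encodes the convertase of the trans-Golgi network, which cuts receptors, growth factors and matrix protein precursors. It had 741, 600 and 309 counts in the 3 sgLTN1 libraries and 195, 375 and 270 counts in the 3 sgNT libraries. These came to 66.9, 65.2 and 63.5 CPM in sgLTN1, against 44.7, 46.4 and 58.2 CPM in sgNT. All sgLTN1 libraries were above all sgNT libraries, and sgNT library 3 lay much nearer to sgLTN1 than the other sgNT libraries did. The log2 fold change of 0.40 (SE 0.10, 95% interval 0.18 to 0.62) was the largest of the 8 and corresponds to 1.32-fold. Its unadjusted p was 0.00222 and its adjusted p 0.126 in edgeR's test, and the authors' deposited table gave 0.42 (SE 0.13).

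With the abundance trend removed, the log2 fold change of Furin was nearly the same, at 0.38, as was that of Pcsk7, at 0.13. Both lie between 4 and 6 on the log2 CPM scale, where the median was -0.0048, so the removal had little to take away. For Furin, the sgNT libraries varied by 14.8% of their mean, where counting gives 5.98%, and the sgLTN1 libraries by 2.61%, where counting gives 4.26%. Without sgNT library 3 the log2 fold change of Furin was 0.52, and over the 6 fits that left out 1 library it ranged from 0.35 to 0.52.

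Transcription of Furin starts at alternative promoters, and 2 windows of it are in RefSeq, both on the minus strand of chromosome 7 (GRCm38.p6). They are shown, with the same capitals, because Furin had the largest fold change and a count per gene does not tell their transcripts apart. Furin upstream is chr7:80405437-80405686 and Furin downstream chr7:80402813-80403062.
Furin upstream: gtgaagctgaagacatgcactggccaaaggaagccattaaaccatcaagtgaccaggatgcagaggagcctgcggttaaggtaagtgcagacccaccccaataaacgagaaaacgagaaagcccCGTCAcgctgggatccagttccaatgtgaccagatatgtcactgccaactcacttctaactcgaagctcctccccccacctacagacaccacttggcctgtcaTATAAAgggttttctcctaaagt
Furin downstream: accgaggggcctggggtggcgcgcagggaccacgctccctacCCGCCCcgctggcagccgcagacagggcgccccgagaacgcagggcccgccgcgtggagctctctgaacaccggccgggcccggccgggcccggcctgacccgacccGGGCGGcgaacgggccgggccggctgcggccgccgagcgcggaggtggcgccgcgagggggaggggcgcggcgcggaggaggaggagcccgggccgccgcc
The upstream window was 50.4% G and C and held a TATA box 23 bases before the start site and 1 core. The downstream window was 83.2% G and C and held 2 GC boxes. Windows were also read for Pcsk7, Cpd and Pam, where the palindrome was not among the letters, and 6 of the 8 genes had a window (not Cpe and Qpct).

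Pcsk7 (ENSMUSG00000035382.10) encodes PC7, a widely expressed membrane-bound convertase. It was the most thinly counted of the 8, with 224, 210 and 105 counts in sgLTN1 and 87, 154 and 95 counts in sgNT. At 20.2, 22.8 and 21.6 CPM in sgLTN1 against 19.9, 19.1 and 20.5 CPM in sgNT, the groups overlapped by a single pair of libraries. The log2 fold change was 0.12 (SE 0.10, 95% interval -0.092 to 0.34, adjusted p = 0.599 in edgeR's test). Furin's 0.40 lay outside that interval, but Furin's own interval of 0.18 to 0.62 overlapped it. The genes were not tested against each other.

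Cpd (ENSMUSG00000020841.6) encodes carboxypeptidase D, a membrane enzyme that trims basic residues in the trans-Golgi network after furin. It read 807, 851 and 726 CPM in sgLTN1, against 704, 687 and 646 CPM in sgNT, and the groups did not overlap. The log2 fold change was 0.23 (SE 0.07, 95% interval 0.076 to 0.38), with an unadjusted p of 0.00696 and an adjusted p of 0.168 in edgeR's test. Without sgLTN1 library 3, the sgLTN1 library nearest to sgNT, it was 0.29 and passed the threshold (adjusted p = 0.0389), in a fit that called 333 genes in all. In the other 5 fits that left out 1 library it was 0.19 to 0.27 and did not pass (adjusted p = 0.200 to 0.500). With the abundance trend removed it was 0.11.

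**Figure D4:**
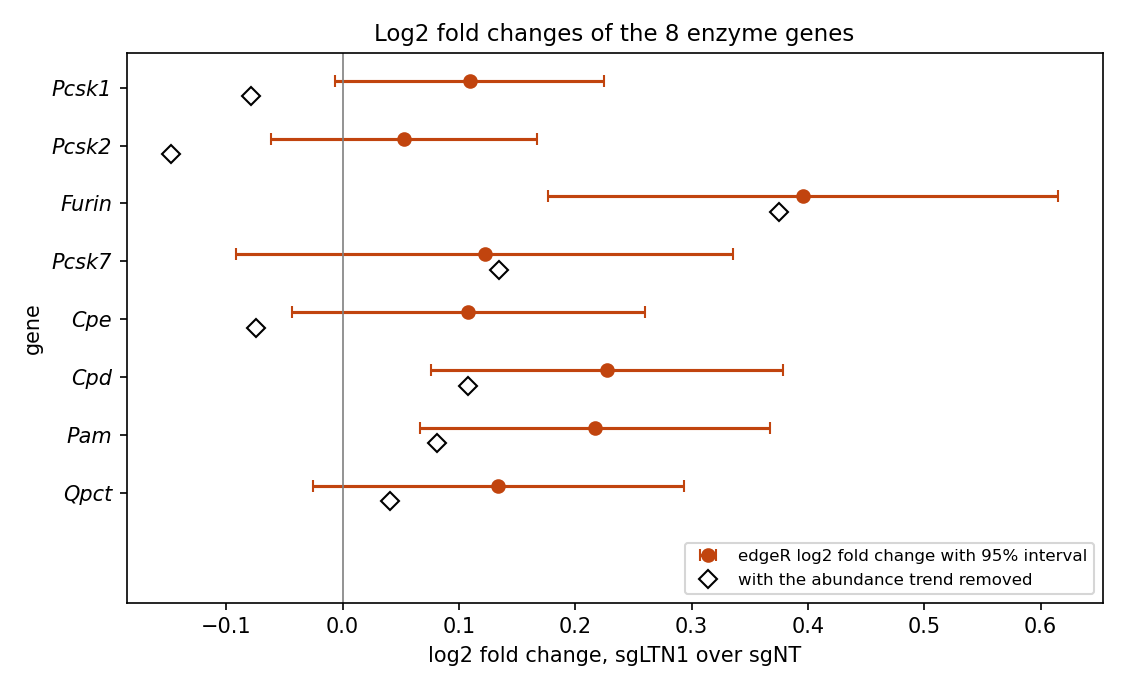
Log2 fold change (sgLTN1 over sgNT) of each enzyme gene with its 95% interval (filled circles), and the same with the abundance trend removed (open diamonds). The intervals of Furin, Cpd and Pam exclude 0, and the diamonds of Pcsk1, Pcsk2 and Cpe lie below 0.

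The 8 genes together took 2.63%, 2.70% and 2.52% of all counts in the 3 sgLTN1 libraries, against 2.62%, 2.62% and 2.50% in the 3 sgNT libraries (two-sided exact permutation p = 0.5, n = 3 each). Pcsk2 alone took 1.07% ± 0.0253 in sgLTN1 and 1.09% ± 0.0163 in sgNT. Per count of Ins1 plus Ins2, the insulin genes, the 8 had 0.422 ± 0.0530 counts in sgLTN1 and 0.417 ± 0.0231 in sgNT (two-sided exact permutation p = 1, n = 3 each). The sgLTN1 libraries spread widest in this ratio, at 0.470, 0.432 and 0.365, and they overlapped the sgNT libraries. These exact tests can give no p below 0.1 with 3 libraries a group, so they could not separate the guides at 0.05. The summed counts are mostly those of Pcsk1, Pcsk2 and Cpe, and they say little about the other enzyme genes.

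Among the genes around the chain, no other convertase or convertase partner passed the threshold. Of 6 listed, 4 were tested, 3 of them above 0, with a median of 0.11. With the abundance trend removed, 2 of these 4 were above 0 and the median was -0.012. Mbtps1, the site-1 protease that activates membrane-bound transcription factors, read 84.6 ± 2.22 CPM in sgLTN1 and 70.0 ± 6.79 CPM in sgNT (n = 3 each; 0.28, SE 0.08, adjusted p = 0.162 in edgeR's test). For Mbtps1, every sgLTN1 library was above every sgNT library. Pcsk5, a convertase gene with 13 to 45 counts a library, read 3.21 ± 0.791 CPM in sgLTN1 and 3.64 ± 0.585 CPM in sgNT, and the libraries overlapped (-0.17, SE 0.26, adjusted p = 0.813 in edgeR's test). Pcsk4 and Pcsk6 had 2 to 12 counts a library and were not tested.

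Other trimming and modifying enzymes were tested in 7 of 10 cases, and all 7 had log2 fold changes above 0 (median 0.15), none past the threshold. Over all tested genes, 47.3% were above 0. With the abundance trend removed, all 7 stayed above 0 and the median was 0.15. Cpn1, which encodes the catalytic subunit of carboxypeptidase N, a plasma enzyme, read 378 ± 11.6 CPM in sgLTN1 and 314 ± 4.85 CPM in sgNT without overlap (0.27, SE 0.06, adjusted p = 0.0908 in edgeR's test). The extracellular carboxypeptidase gene Cpz was at 7.59 ± 1.60 CPM in sgLTN1 and 4.61 ± 0.987 CPM in sgNT (0.78, SE 0.22, adjusted p = 0.149). It had only 18 to 96 counts a library, and sgLTN1 library 3 (5.75 CPM) nearly met sgNT library 1 (5.73 CPM). The tyrosylprotein sulfotransferase genes, which add sulfate to tyrosines of secreted proteins, had log2 fold changes of 0.53 (SE 0.21) for Tpst1 and 0.15 (SE 0.09) for Tpst2.

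Copper and ascorbate feed the amidation reaction of Pam, and 5 of 6 genes of their supply were tested, none past the threshold and 4 above 0 (median 0.17). With the abundance trend removed, 3 of these 5 were above 0 and the median was 0.12. Slc31a1, the copper importer of the plasma membrane, read 153, 159 and 139 CPM in sgLTN1, against 123, 112 and 114 CPM in sgNT. These groups were well apart, with a log2 fold change of 0.38 (SE 0.07, unadjusted p = 3.36e-04, adjusted p = 0.0786 in edgeR's test). Atp7a, the pump that loads copper into the secretory pathway, had a log2 fold change of 0.17 (SE 0.09), and Slc23a2, an ascorbate transporter, also 0.17 (SE 0.09). The copper chaperone gene Atox1 was at -0.21 (SE 0.11). Cyb561, the granule cytochrome that passes electrons to ascorbate, read 68.3 ± 4.47 CPM in sgLTN1 and 67.8 ± 2.45 CPM in sgNT (0.0068, SE 0.08, 95% interval -0.16 to 0.18).

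Of 12 tested genes for adaptors and receptors that sort convertases and other cargo at the trans-Golgi network and endosomes, 6 were above 0 and 6 below, with a median of -0.00050 and none past the threshold. The adaptor gene Gga2 had 118 ± 2.26 CPM in sgLTN1 and 99.3 ± 2.89 CPM in sgNT (0.24, SE 0.06, adjusted p = 0.131 in edgeR's test). Pacs2, whose relative PACS1 retrieves furin to the trans-Golgi network, had 41.7, 44.0 and 63.5 CPM in sgLTN1, against 75.0, 57.9 and 79.6 CPM in sgNT. Its groups overlapped through sgLTN1 library 3 (-0.52, SE 0.16, adjusted p = 0.170). Sort1, the sorting receptor sortilin, was at 0.22 (SE 0.10) and the retromer gene Vps35 at -0.15 (SE 0.06).

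Precursors that these enzymes act on were tested in 21 of 29 cases, with 16 above 0, a median of 0.13 and 1 gene past the threshold in each direction. Adm, the adrenomedullin precursor gene, rose to 30.7, 31.8 and 27.3 CPM in sgLTN1, against 21.3, 18.9 and 18.1 CPM in sgNT (0.64, SE 0.10, adjusted p = 0.0391 in edgeR's test). Penk, the proenkephalin gene, fell to 56.3, 55.4 and 52.4 CPM in sgLTN1, against 102, 90.2 and 82.8 CPM in sgNT (-0.74, SE 0.09, adjusted p = 0.00696). Sst, the somatostatin gene, read 40.5, 42.0 and 47.5 CPM in sgLTN1 and 28.9, 30.6 and 31.7 CPM in sgNT (0.50, SE 0.09, adjusted p = 0.0620). Chgb, a granin, was at 0.28 (SE 0.06, adjusted p = 0.0881). With the abundance trend removed, 10 of the 21 precursors were above 0 and the median was -0.019.

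**Figure D5:**
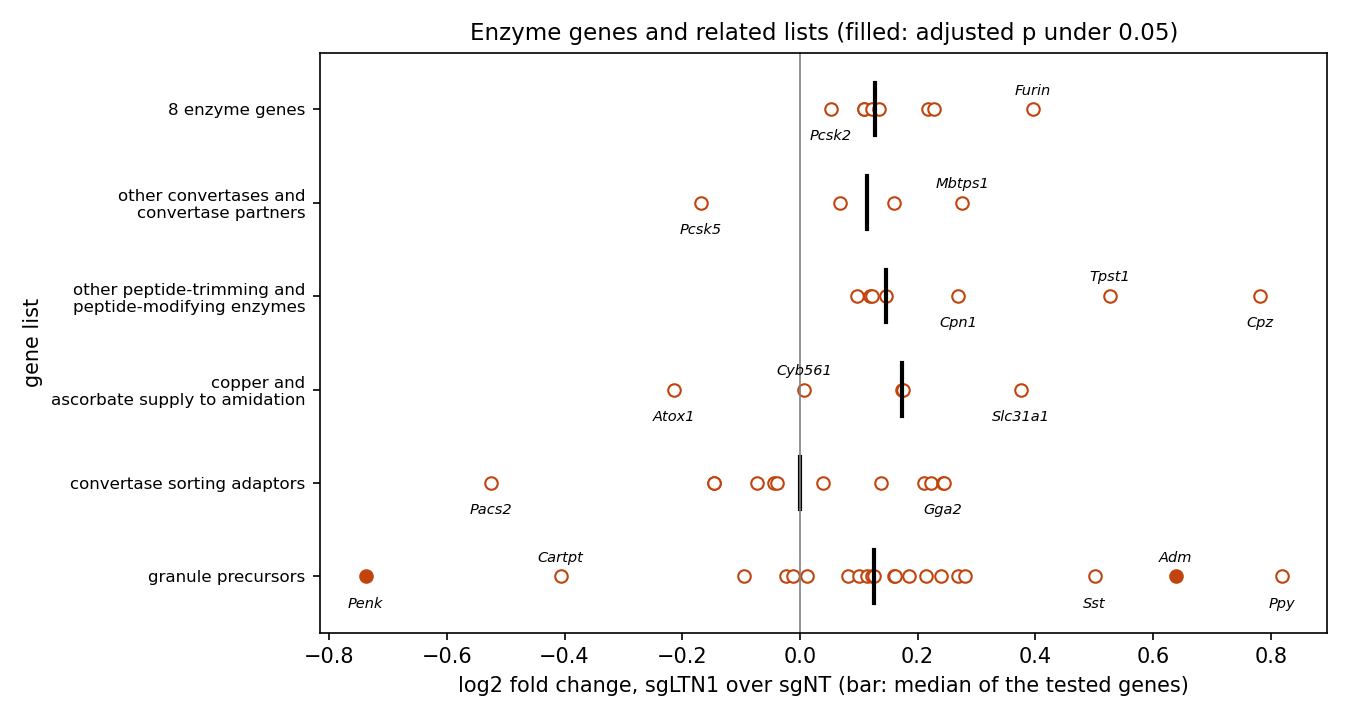
Log2 fold change (sgLTN1 over sgNT) of each tested gene in the enzyme group and in the related lists, 1 circle a gene, filled where the adjusted p is under 0.05, with a black bar at the list's median. Penk at -0.74 and Adm at 0.64 are the filled circles, and the sorting adaptors centre on 0.

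Across the 6 libraries, the genes whose log2 CPM most resembled each main granule enzyme were named by Pearson correlation among 2580 other genes of at least 50 CPM. For Pcsk1 they were Rtn3 (r = 0.994), Pld3 (0.993) and Yipf5 (0.992), and for Pcsk2 Scamp2 (0.996), Rtn4 (0.994) and Slco3a1 (0.989). For Cpe they were Prdx4 (0.999), Slc8a1 (0.996) and Lnpk (0.995), and for Pam Napsa (0.999), Ctsz (0.997) and Slc6a6 (0.996). The points are 6 libraries scaled together and unequal in depth. Values of r exceeded 0.9 for 12.8% of the genes compared with Pcsk1, 3.10% with Pcsk2, 10.7% with Cpe and 18.1% with Pam.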

How the data were processed

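Ribosome profiling libraries of MIN6 cells were compared, 3 with sgLTN1 and 3 with sgNT, grouped by the genotype label. The authors deposited whole-number counts per gene, 1 column per library. The submitters' processing notes name featureCounts 2.12.3, STAR 2.7.11a, Bowtie2 2.5.4, fastp 0.23.4, SAMtools 1.9, UMI-tools 1.1.2 and the build GRCm39. What each did, the settings, the annotation and the use of strand: not given in the sources used here. The other deposited table is DESeq2 output (version 1.38.3). Per the file headers it gives a p-value with its adjusted form, a log2 fold change with its SE, a Wald score, and a mean normalized count (a signal).

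Counts were analysed with edgeR 4.0.16 in R 4.3.3: filterByExpr, TMM scaling (factors 0.954 to 1.04), and the quasi-likelihood test of sgLTN1 against sgNT with group as the only term. P-values were Benjamini-Hochberg adjusted over all 12782 tested genes. The SE given with an edgeR fit was derived from the test, as the absolute log2 fold change over the square root of the F statistic. The 95% intervals add and subtract this SE times a t quantile. CPM values are scaled counts, with a prior count of 2 on the log scale. The abundance trend was removed by a lowess curve (span 0.4) of each library's deviation on mean log CPM. Ratios were tested by two-sided exact permutation. No protein sequence or coding length was used. The members and lists were chosen with earlier results of these data known. Named were the 8 members, the up to 4 genes of each list with the smallest p, and Ltn1, Ins1, Ins2 and Cyb561. From the planned list of other convertases 1 gene was left out and is not reported here. For Pcsk1, Pcsk2, Cpe and Pam the 3 genes most like each were also named.

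On counts simulated for sgLTN1 against sgNT over 12591 genes, changes of 1.3-fold were called in 6.12% of altered genes. The share was 52.1% for 1.5-fold, 73.5% for 2-fold and 95.9% for 3-fold, and 16 of the 127 calls fell on unaltered genes. These shares are not split by abundance, so they do not give the power for the enzyme genes. Of the tested genes, 2171 lay below 2 on the log2 CPM scale and 4748 between 2 and 4, and no enzyme gene was among them. Replicate libraries differed by more than sampling noise (chi-square per degree of freedom at least 2.40), so none was treated as a library deposited more than once.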

Additional observations from a re-analysis of the deposited data

How the results depend on the processing

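The number of genes called over all genes, 23 here, was 42 with total counts (8 higher and 34 lower, against 11 and 12 here), 24 with the genes above 1% of a library left out of those totals (6 higher and 18 lower), 227 with DESeq2 (183 higher and 44 lower), 40 with limma-voom 3.58.1, 222 with no filter on low counts and 609 with the replicate block (406 higher and 203 lower), and 20 with the abundance trend removed (7 higher and 13 lower). It ranged from 4 to 333 over the fits that left out 1 library, highest without sgLTN1 library 3 (191 higher and 142 lower), and with 0 to 2 higher calls in the other 5. The number of enzyme genes called, 0 in edgeR's test (3 at an unadjusted p under 0.05), was 2 with DESeq2 1.42.0 (Furin and Cpd), 1 with no filter (Furin, adjusted p = 0.0329), 3 with the replicate block (Furin, Cpd and Pam), and 0 to 1 over the fits that left out 1 library. Deviations of same-numbered libraries correlated at -0.048, 0.067 and 0.088, within the -0.12 to 0.095 of differently numbered ones. Whether the numbers mark libraries prepared together is not settled by these values, which are taken over all tested genes. Furin, Pcsk7, Cpd, Pam and Qpct kept a log2 fold change above 0 in all 15 alternatives. Pcsk2 turned to -0.022 with total counts, to -0.020 with the 10 genes above 1% of a library left out of the library size, and to -0.15 with the abundance trend removed, and under the last Pcsk1 turned to -0.079 and Cpe to -0.075. The median of the 8 genes ranged from 0.052 with total counts to 0.19 without sgNT library 1. The log2 ratio of the enzymes to the insulin genes ranged from -0.069 to 0.11 over the fits that left out 1 library, turning below 0 without sgLTN1 library 1 (-0.069), sgLTN1 library 2 (-0.0083) or sgNT library 3 (-0.027). The difference in the enzymes' share of counts, 0.037 percentage points, ranged from -0.0063 to 0.086, turning below 0 without sgLTN1 library 2 (-0.0063) or sgNT library 3 (-0.0023). The log2 ratio of Pcsk1 to Pcsk2 ranged from 0.050 to 0.068 and was 0.057 with same-numbered libraries paired (exact sign-flip p = 0.25, the smallest it can give). The causes were not tested. Total counts moved the median of all genes to -0.092. Of the 8, Pcsk7 is most limited by depth.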
